A study of Mus musculus with 2 samples.

Results

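The genes described are 6 forkhead transcription factors, Foxp3, Foxp1, Foxp4, Foxo1, Foxo3 and Foxo4, chosen by gene symbol from a table of 24081 genes. Their RNA was measured by RNA sequencing in regulatory T (Treg) cells, a CD4+ lineage that restrains immune responses. The cells, CD4+ and YFP+ by flow sorting, came from spleen and lymph nodes of C57BL/6 mice of 5 weeks, with cells of 5 to 10 mice pooled per library. The control library (WT) came from Foxp3cre/wt mice with 1 floxed allele of a gene of the SUMO pathway, which attaches small SUMO proteins to other proteins, and the knockout library (KO) from Foxp3cre/wt mice with both alleles of that gene floxed. Both groups thus carried the Cre recombinase, driven by Foxp3, and the WT group is not free of the floxed allele. The question of the study is what SUMOylation contributes to the expansion and function of Treg cells.

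Both samples are labelled wild type in the genotype field, so the groups rest on the sample titles and the design text. The ratios below compare the libraries titled KO and WT and do not measure how complete the deletion was. Foxp3 lies on the X chromosome, so a Foxp3cre/wt animal is female and holds Treg cells that use either X chromosome. The YFP sort takes those that use the Cre allele. Xist, expressed from the inactive X chromosome of females, had 3167 reads in WT and 5923 in KO. The Y-linked Uty, Eif2s3y and Kdm5d had 0 reads in both, and Ddx3y had 1 and 0.

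There was 1 library per group, so the differences below have no replicate check and carry no p-value. Reads assigned to genes numbered 11662867 in WT and 23789264 in KO, 76.6% of all counted entries in each. Intervals are exact 95% intervals of the ratio for counting error only. They hold no spread between mice and treat reads as independent, though no molecular identifiers are described. A gene with a mean of at least 20 reads over both libraries is called expressed (10899 genes), and calls of higher or lower need a ratio of 1.5-fold. Levels are in CPM, counts scaled to a common library size. In a bulk library, a change in the make-up of the sorted cells and a change in RNA per cell cannot be told apart.

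Forkhead factors bind DNA through a winged-helix domain, the forkhead box. Foxp3 defines the Treg lineage: it keeps genes such as Il2ra and Ctla4 on and effector cytokine genes off. Its relatives Foxp1 and Foxp4 repress transcription in many cell types, and Foxp1 keeps naive T cells quiescent. The FoxO factors are held in the cytoplasm when the kinase Akt phosphorylates them. When Akt signalling is low they enter the nucleus and drive genes of quiescence, recirculation and cell death, and in Treg cells Foxo1 and Foxo3 support Foxp3 expression and Treg function.

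The members are most alike in the part of their coding sequence that encodes the DNA-binding domain. The stretch of 60 coding bases of Foxp3 that best matched Foxp4 and the FoxO genes together lies in the forkhead box. It was chosen by likeness to Foxp3, not by likeness of the other genes to each other. It is shown for these 5 because it is what makes these genes a family and what could make reads hard to assign. Sequences are from GENCODE M21 transcripts, 5′ to 3′, with the 32 bases that are the same in all 5 in capitals.
Foxp3: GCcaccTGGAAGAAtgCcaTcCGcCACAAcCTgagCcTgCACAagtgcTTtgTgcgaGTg
Foxp4: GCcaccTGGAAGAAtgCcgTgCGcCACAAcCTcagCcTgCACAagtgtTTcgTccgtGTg
Foxo1: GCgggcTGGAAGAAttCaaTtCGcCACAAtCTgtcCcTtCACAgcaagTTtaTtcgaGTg
Foxo3: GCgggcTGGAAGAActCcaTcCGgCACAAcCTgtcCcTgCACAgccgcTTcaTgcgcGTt
Foxo4: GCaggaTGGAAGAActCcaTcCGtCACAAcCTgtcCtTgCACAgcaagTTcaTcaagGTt
Over this stretch Foxp4 was identical to Foxp3 at 88.3% of bases, against 63.3% to 75% for the FoxO genes. Over the whole coding sequences, the longest run of bases shared exactly by a pair of the 5 was 38 bases (Foxo1 and Foxo3), followed by 20 bases (Foxo3 and Foxo4), and was 18 bases for Foxp3 and Foxp4. The sources used here do not give the read length, and reads that aligned to several places were not counted to genes.

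Per kb of exon Foxp3 was the most abundant of the 6 in both libraries, and it was 1.85-fold higher in the KO library (interval 1.81 to 1.90). Its reads numbered 8540 in WT and 30579 in KO, or 713 and 1320 CPM. Per kb of exon this was 156 and 288 CPM, and Foxp3 went from the 167th most counted expressed gene to the 65th. Of all members it is the one tied to the sort, which gated on a Foxp3-driven reporter in both groups. Only 280 of the 10899 expressed genes had a higher ratio. Of the 3824 genes that averaged at least 1000 reads, where counting error is small, 46 did.

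Foxp4 was the other member with a difference of that size, at 1.89-fold higher in the KO library (1.80 to 1.99). It had 1898 and 6950 reads, or 32.2 and 60.9 CPM per kb. Of all expressed genes 237 had a higher ratio than Foxp4. Foxp3 and Foxp4 were therefore in the same proportion in both libraries: there were 4.5 Foxp3 reads per Foxp4 read in WT and 4.4 in KO, a ratio of 0.978 (approximate interval 0.924 to 1.03) that needs no scaling.

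Foxp1 and Foxo1 differed much less, and in the same direction. Foxp1 had 4167 and 9533 reads, 1.18-fold higher in the KO library (1.14 to 1.23). Foxo1, the most expressed FoxO gene, had 8674 and 20837 reads, 1.24-fold higher (1.21 to 1.27). Both intervals exclude equal levels, but 74.2% and 79.6% of expressed genes had a lower ratio than Foxp1 and Foxo1, so differences of this size were common between these libraries.

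The other FoxO genes did not differ detectably at this depth. Foxo3, a close relative of Foxo1, had 786 and 1599 reads (1.05-fold higher in KO, 0.965 to 1.15). Foxo4 had 382 and 662 reads (1.12-fold lower in KO, 0.981 to 1.27). Both intervals include equal levels and exclude a difference of 1.5-fold.

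**Figure D1:**
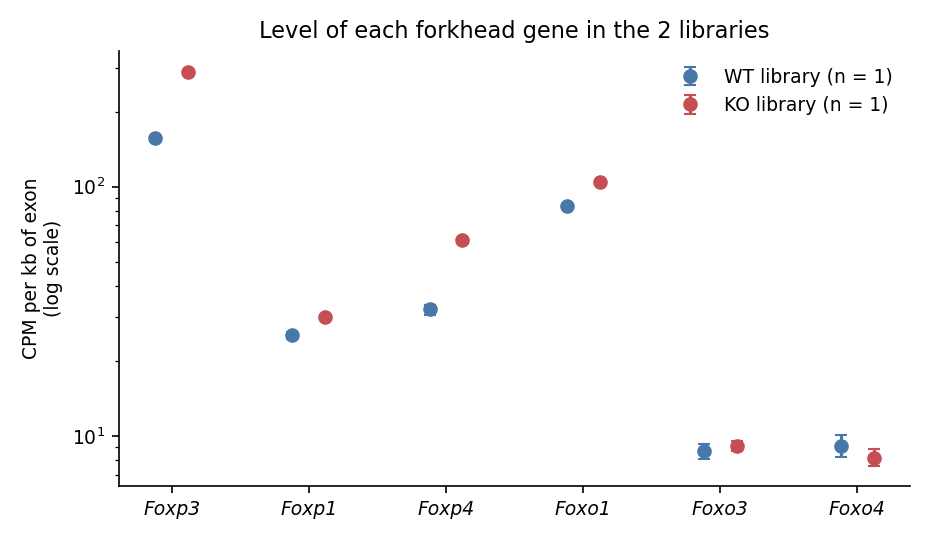
Level of each forkhead gene in the WT (blue) and KO (red) library, in CPM per kb of exon on a log axis; bars are exact 95% Poisson intervals, often smaller than the points. Foxp3 stands at 156 and 288 and Foxp4 at 32.2 and 60.9, while Foxo3 and Foxo4 lie between 8.2 and 9.15 in both libraries.

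In all, 2 of 6 members passed 1.5-fold upwards in the KO library and none downwards, while 7.43% of all expressed genes passed it upwards and 5.51% downwards. None of the 6 reached 2-fold, as 3.67% of expressed genes did in either direction. The log2 ratios of the members ran from -0.16 for Foxo4 through 0.07 (Foxo3), 0.24 (Foxp1), 0.31 (Foxo1) and 0.89 (Foxp3) to 0.92 for Foxp4. Over all expressed genes the median was 0.01, and the central 95% ran from -0.91 to 0.89. For genes that averaged at least 1000 reads the central 95% was narrower, from -0.47 to 0.74, with Foxp3 and Foxp4 above it.

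**Figure D2:**
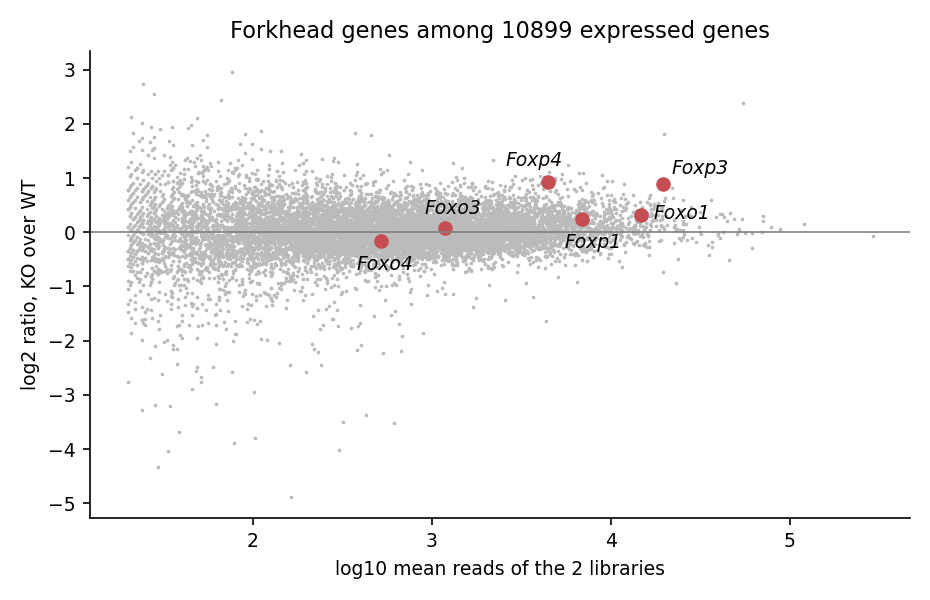
Log2 ratio of KO over WT against the log10 mean read count for 10899 expressed genes (grey), with the 6 forkhead genes in red. Foxp3 (0.89) and Foxp4 (0.92) lie at the upper edge of genes with like read counts, and the other 4 lie within the main band.

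In the reads as counted, the balance among the members shifted towards Foxp3 and Foxp4. Foxp3 made up 34.9% of the 24447 reads of the 6 genes in WT (Clopper-Pearson, 34.3 to 35.5) and 43.6% of 70160 in KO (43.2 to 44.0). Foxp4 went from 7.76% (7.43 to 8.11) to 9.91% (9.69 to 10.1). The other members lost share: Foxo1 went from 35.5% to 29.7%, Foxp1 from 17% to 13.6%, Foxo3 from 3.22% to 2.28% and Foxo4 from 1.56% to 0.944%. In the WT library Foxp3 and Foxo1 had nearly equal reads, 0.985 Foxp3 reads per Foxo1 read, and in the KO library 1.47, a 1.49-fold shift (1.44 to 1.54). For Foxp3 over Foxp1 the shift was 1.57-fold (1.5 to 1.63), and for Foxp3 over Foxo4 2.07-fold (1.82 to 2.35). These ratios do not depend on how the libraries are scaled, but they do depend on the trend with GC content described below.

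Per kb of exon, the order of levels was Foxp3, Foxo1, Foxp4 and Foxp1 in both libraries, followed by Foxo3 and Foxo4. The last 2 overlapped within counting error: in WT Foxo4 had 9.15 (8.26 to 10.1) and Foxo3 8.67 (8.07 to 9.29) CPM per kb, and in KO 8.2 (7.59 to 8.85) and 9.12 (8.68 to 9.58). The place of Foxp1 depends on the length used, since its annotated exons add up to 13.8 kb but its longest transcript has 7177 bases. Per kb of longest transcript, Foxp1 was above Foxp4 in WT (48.5 and 39.6 CPM per kb) and below it in KO (57.3 and 75).

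The ratio of KO over WT went with transcript GC content, and Foxp4 is the member with the most GC. Across 10447 expressed genes with a GC value the Spearman correlation was 0.41, given here as a description, since genes are not independent. The Foxp4 transcript has a GC content of 63.4% and lies in the decile of genes with the highest GC content, whose median log2 ratio was 0.36. Foxp3, at 55%, lies in a decile with a median of 0.11. Within these deciles, 81 of 1045 genes had a higher ratio than Foxp4 and 25 of 1044 a higher ratio than Foxp3. Foxp1 and Foxo1 lie in deciles with medians of -0.08 and -0.03, where 130 of 1044 and 124 of 1045 genes had a higher ratio. For Foxo3 and Foxo4 the medians were 0.05 and 0.22, and 489 and 909 of 1045 genes had a higher ratio. When the trend with GC content and length was taken out by a smooth fit, Foxp3 was at 0.71 on the log2 scale, still over 1.5-fold, and Foxp4 at 0.41, under it. Foxp1 and Foxo1 were then at 0.21 and 0.28, Foxo4 at -0.32, and Foxo3 turned from 0.07 to -0.07. With the trend removed, 1 of 6 members passed 1.5-fold upwards and none downwards, beside 4.20% and 6.14% of genes. The difference between Foxp3 and Foxp4, -0.03 as counted, became 0.30, so the equal proportion described above holds only for the reads as counted. The shift in balance was smaller too. On the log2 scale, Foxp4 over Foxo1 went from 0.61 to 0.13, Foxp4 over Foxo4 from 1.08 to 0.73 and Foxp1 over Foxp4 from -0.68 to -0.21. Foxp3 over Foxo1 went from 0.58 to 0.43, Foxp3 over Foxp1 from 0.65 to 0.51 and Foxp3 over Foxo4 from 1.05 to 1.03. How GC content came to differ between the libraries was not tested.

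**Figure D3:**
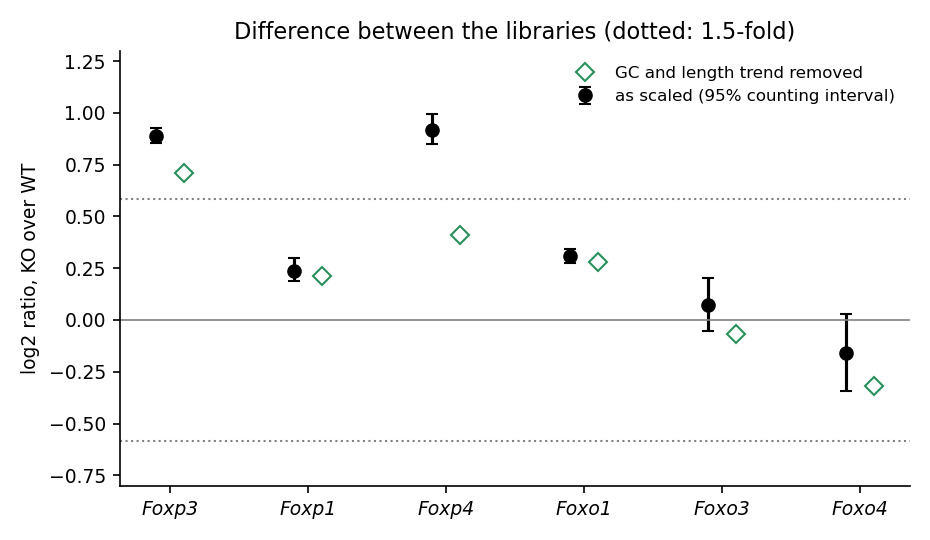
Log2 ratio of KO over WT for each forkhead gene as scaled (black, exact 95% counting interval) and after removal of the trend on GC content and length (green diamonds); dotted lines mark 1.5-fold. Foxp3 stays above the line (0.89 and 0.71), Foxp4 does not (0.92 and 0.41), and Foxo3 lies on either side of 0 (0.07 and -0.07).

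**Figure D4:**
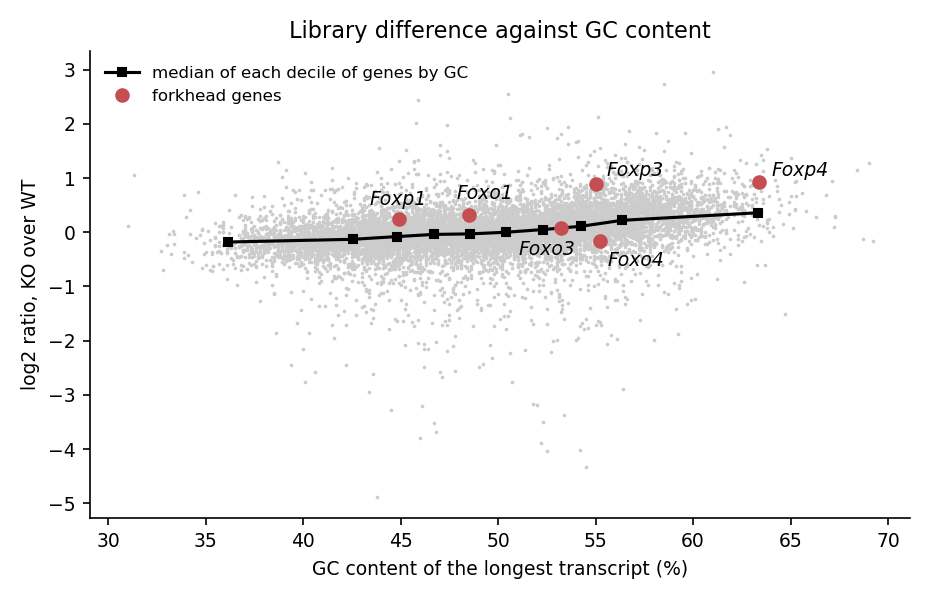
Log2 ratio of KO over WT against the GC content of the longest transcript for 10447 expressed genes (grey), with the median of each decile of genes drawn at the middle of its GC range (black) and the forkhead genes in red. The medians climb from -0.18 to 0.36. Foxp3, Foxp4, Foxp1 and Foxo1 lie above the line, Foxo3 close to it and Foxo4 below it.

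The members lie apart in the genome. In the build GRCm38 (mm10), Foxp3 spans positions 7573644 to 7595245 of chromosome X and Foxo4 positions 101254528 to 101260873 of the same chromosome. Among 328 expressed X-linked genes 5 had a higher ratio than Foxp3 and 202 a higher ratio than Foxo4, and the median of those genes was -0.08. Foxp1 lies on chromosome 6 (98925338 to 99522721), Foxp4 on 17 (47867133 to 47924645), Foxo1 on 3 (52268336 to 52353221) and Foxo3 on 10 (42181841 to 42276755).

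Foxp3 is the member whose count is least certain by position. Of its annotated exon bases, 31.5% overlap exons of other genes: 18.6% those of the noncoding RNA gene Flicr on the same strand, and 12.9%, 8.15% and 5.81% those of Ccdc22, of the noncoding transcript gene Gm36995 and of Ppp1r3f, all on the opposite strand. Some of these stretches overlap each other. The sources used here do not say if reads were counted by strand. Ccdc22, part of a complex that sorts endosomal cargo, had 323 and 730 reads (1.17-fold higher in KO, 1.02 to 1.34), and Ppp1r3f, a glycogen-targeting phosphatase subunit, had 222 and 592 (1.38-fold higher, 1.18 to 1.62). Both had few reads beside Foxp3. Flicr and Gm36995 are not among the counted genes under these names. Their reads, and any part of them counted to Foxp3, are therefore not known. Exons of Foxp1 and Foxo1 overlap other genes at 3.16% and 7.78% of their bases, and those of Foxp4, Foxo3 and Foxo4 at 0.

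Of the nearest protein-coding neighbours, most had few or no reads. Gm614, which lies 503 bases past the end of Foxo4, had 46 and 201 reads (2.26-fold higher in KO, 1.63 to 3.19), while Foxo4 itself did not differ detectably. Snx12 on its other side had 625 and 1343 reads (1.11-fold higher, 1.01 to 1.22). Snx3 next to Foxo3 had 2725 and 5970 reads (1.13-fold higher, 1.08 to 1.19). Eif4e3 next to Foxp1 and Cog6 next to Foxo1 had intervals that include equal levels (0.894 to 1.09 and 0.841 to 1.04).

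The promoters of Foxp3 and Foxp4, the members with the largest ratios, are unlike in sequence. Shown are the 250 bases before the first listed start of Foxp3 (chrX:7579426-7579675, plus strand) and the start of Foxp4 (chr17:47924633-47924882, minus strand), from RefSeq on GRCm38.p6. Capitals mark matches on either strand to TGTTTAT, a variant of the forkhead core, to TATAAA, the TATA box core, and to GGGCGG, the core of Sp1 sites.
Foxp3: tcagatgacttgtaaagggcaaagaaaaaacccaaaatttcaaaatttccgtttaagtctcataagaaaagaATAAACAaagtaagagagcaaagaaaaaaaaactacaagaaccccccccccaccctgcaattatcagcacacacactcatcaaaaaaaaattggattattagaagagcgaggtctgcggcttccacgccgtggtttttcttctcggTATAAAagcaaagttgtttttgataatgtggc
Foxp4: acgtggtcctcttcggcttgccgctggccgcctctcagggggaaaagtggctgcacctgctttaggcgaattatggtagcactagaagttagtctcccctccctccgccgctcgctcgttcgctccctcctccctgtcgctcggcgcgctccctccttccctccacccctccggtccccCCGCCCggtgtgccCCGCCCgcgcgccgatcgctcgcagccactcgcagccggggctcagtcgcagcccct
The Foxp3 window has a GC content of 37.6%, with 7.92% of the promoters compared lower, and holds TATAAA at position -32 from the start and TGTTTAT (as its reverse complement) at -178. The Foxp4 window has 69.6% GC, 27 CpG sites and 2 matches to GGGCGG. Among 32851 promoter windows of this length, 12.4% hold TATAAA, 4.16% TGTTTAT and 32.7% GGGCGG. The forkhead core TGTTTAC, present in 3.17% of them, was in none of the 8 windows of Foxp3, Foxp1, Foxp4, Foxo1 and Foxo3. No matches overlapped. Foxo4 has no entry in the table. The Foxp3 windows lie inside the span that GENCODE gives for the gene (7573644 to 7595245), so the RefSeq starts lie past the first base of that span. Exons of the noncoding RNA gene Flicr overlap exons of Foxp3, and how far they cover these windows was not measured.

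Of 38 further forkhead genes listed, 7 were expressed. Among these, 6 had a log2 ratio above 0, as did 51.4% of all expressed genes, and 1 was called higher, beside 7.43% of all. Foxj2 alone was over 1.5-fold higher in KO, with 1100 and 3511 reads (1.65-fold, 1.54 to 1.77), and at 0.53 with the GC trend removed it was not. Foxk1, a regulator of autophagy and glycolysis genes, had 2742 and 7518 reads (1.42-fold higher) and its paralog Foxk2 had 925 and 1936 (1.08-fold). Foxn3 had 792 and 1977 (1.29-fold higher), Foxj3 1115 and 2492 (1.16-fold higher) and Foxm1, a driver of mitotic genes, 160 and 378 (1.22-fold higher). Foxn2 was the exception, with 1178 and 1812 reads (1.26-fold lower, 1.17 to 1.35). The closest relatives of the members were at or near 0: Foxp2 had 0 and 1 reads and Foxo6 0 in both.

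Next come the genes around the members, from lists of targets, regulators and partners. Genes that FoxO factors are known to activate gave no common shift by their median. Of 25 such genes, all expressed, 4 passed 1.5-fold upwards, 1 downwards and 20 lay between. Of all expressed genes 7.43% passed it upwards and 5.51% downwards. The median log2 ratio of the 25 was 0.03, beside 0.01 over all expressed genes. The insulin receptor substrate Irs2 had 104 and 494 reads (2.46-fold higher in KO, 1.98 to 3.07). The death gene Bbc3 and the stress gene Gadd45a were 1.92-fold and 1.76-fold higher on few reads, and the death ligand Fasl 1.83-fold lower. The classical Foxo1 targets of T cell recirculation varied: Klf2 was 1.70-fold higher, Ccr7 1.39-fold and the egress receptor S1pr1 1.23-fold (11459 and 27288 reads). The IL-7 receptor chain Il7r did not differ detectably (2057 and 3838 reads, 1.04-fold lower, 0.982 to 1.09). With the GC trend removed, 2 of the 25 were higher, Irs2 (1.01) and Gadd45a (0.82), beside 4.20% of all genes, and Klf2 was at 0.35.

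Most genes whose products control FoxO proteins differed by less than 1.5-fold, as most expressed genes did. Of 32 such genes 2 were higher, 30 between and none lower, with a median of 0.06. Of all expressed genes 7.43% were higher and 5.51% lower. The acetyltransferase genes Crebbp and Ep300, whose products acetylate FoxO proteins and, for Ep300, Foxp3, had 1751 and 6353 reads (1.88-fold higher in KO, 1.78 to 1.98) and 3949 and 11548 (1.51-fold, 1.46 to 1.57). Among kinases that exclude FoxO from the nucleus, Akt1 was 1.46-fold and Sgk1 1.35-fold higher. With the GC trend removed Crebbp alone passed 1.5-fold upwards (0.76), beside 4.20% of all genes, and Akt1 was at 0.17.

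Most regulators of the Foxp3 locus differed by less than 1.5-fold. Of 20 such genes 4 were higher, beside 7.43% of all expressed genes, 16 between and none lower; 15 lay above 0 on the log2 scale, as 51.4% of all expressed genes did, and the median was 0.32, beside 0.12 with the GC trend removed. The 4 were Nr4a1, a nuclear receptor induced by T cell receptor signals (1.91-fold), Kmt2d, a histone H3K4 methyltransferase (1.86-fold, 1.80 to 1.92), Gata3, a zinc finger factor (1.59-fold, 1.48 to 1.70) and Tet3, a DNA demethylase (1.56-fold, 1.48 to 1.64). Nr4a1 and Gata3, both at 0.68, stayed over 1.5-fold with the trend removed, and Kmt2d (0.42) and Tet3 (0.41) did not, which left 2 of 20 higher beside 4.20% of all genes.

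Of 18 genes for protein partners and modifiers of Foxp3, 3 were higher, 15 between and none lower. Of all expressed genes 7.43% were higher and 5.51% lower. Among the 18, 11 lay above 0, as 51.4% of all expressed genes did, and the median was 0.10. The kinase gene Pim1 had 1900 and 6428 reads (1.75-fold higher in KO, 1.66 to 1.84), and Gata3 and Ep300, named above, were the others. Hdac9, a class IIa deacetylase gene, had 103 and 134 reads (1.49-fold lower, 1.14 to 1.94). With the trend removed it passed 1.5-fold downwards (-0.61), as did Xbp1 (-0.60), named here after its values were seen. The list then had 2 lower and 2 higher genes, beside 6.14% and 4.20% of all genes.

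Foxp3 itself was higher in the KO library, while more of the genes that it is known to activate were lower than higher. Among the 19 that were measured, 9 passed 1.5-fold downwards in KO, beside 5.51% of all expressed genes, 9 lay between and 1 was higher, with a median log2 ratio of -0.50. With the GC trend removed 7 were lower, beside 6.14% of all genes, and the median was again -0.50; Ctla4 (-0.53) and Prdm1 (-0.58) were then under 1.5-fold. Itgae, which encodes the integrin chain CD103, had 538 and 230 reads (4.52-fold lower, 3.87 to 5.30). The costimulatory receptor Icos (1945 and 1441 reads) was 2.61-fold lower and the ecto-enzyme Nt5e (2806 and 2291) 2.37-fold lower, while Lrrc32, which encodes GARP, was 2.36-fold higher. Among the defining Treg markers, Ctla4 was 1.61-fold and Ikzf2, which encodes Helios, 1.59-fold lower (1.52 to 1.65), and Il2ra was 1.36-fold and Tnfrsf18 1.19-fold higher. Several of these genes were already known to differ here, so the list is no independent evidence of a direction.

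Genes that Foxp3 is known to repress were few. Of 10 such genes 7 were expressed, with a median of 0.37: 1 was higher, 1 was lower and 5 lay between. Of all expressed genes 7.43% were higher and 5.51% lower. Igfbp4 was 1.88-fold higher (3138 and 11428 reads), the chromatin organiser Satb1 1.46-fold (9648 and 27208) and the phosphodiesterase Pde3b 1.40-fold (582 and 1574). The cytokine Ifng had 31 and 18 reads (3.33-fold lower, 1.81 to 6.32). Il2 and Il4 had at most 2 reads in either library and Il17a had 0.

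Of 11 corepressor genes whose products work with Foxp1, Foxp4 and their relatives, 1 was higher and 10 between, with a median of 0.07. Of all expressed genes 7.43% were higher. Mta1, a subunit gene of the NuRD complex, had 1938 and 5656 reads (1.51-fold higher in KO, 1.43 to 1.59), and with the GC trend removed it was at 0.34, under 1.5-fold. Gatad2a, Gatad2b and Chd4, which encode other subunits of that complex, were 1.25-fold, 1.21-fold and 1.18-fold higher. Others of the list lay on the other side of 0, so that 6 of 11 were above it: Rbbp7 was at -0.20 on the log2 scale, Rbbp4 at -0.15, Hdac2 at -0.12, Hdac1 at -0.07 and Mbd3 at -0.04.

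**Figure D5:**
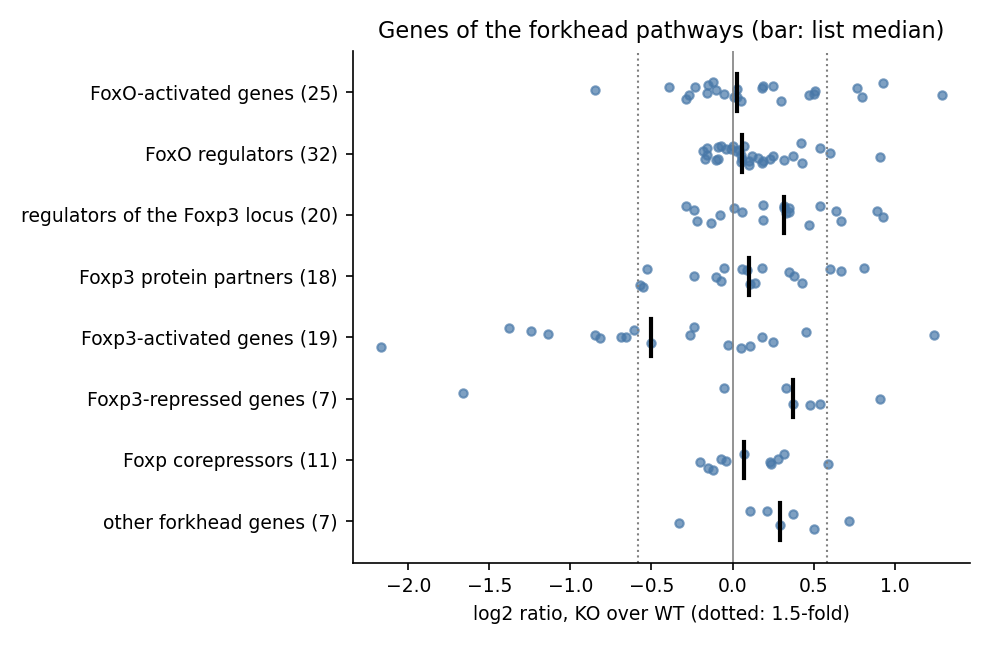
Log2 ratio of KO over WT for each expressed gene of 8 lists around the forkhead genes (points, spread vertically for legibility), with the list median (black bar), the number of genes in parentheses and dotted lines at 1.5-fold. Foxp3-activated genes have a median of -0.50 and regulators of the Foxp3 locus one of 0.32; the other medians lie between 0.03 and 0.37.

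Over 3780 genes that averaged at least 1000 reads, predicted genes left out, the genes whose log2 ratio lay nearest to that of Foxp3 were Zfp598 (732 and 2624 reads), Kmt2d and Sp2 (1240 and 4464 reads), each within 0.01. Nearest to Foxp4 were Tecpr1 (1779 and 6508), Igfbp4 and Arhgap20 (724 and 2637). Likeness of a ratio over 2 libraries is a weak measure, since 963 of the 3824 genes lay above Foxp1 alone and many share nearly the same value.

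Markers of other cells gave these values beside the results. The T cell genes Cd4 and Cd3e were 1.21-fold and 1.13-fold higher in KO, less than Foxp3. Summed over its list, B cell markers had 118 CPM in WT and 96.4 in KO, CD8 T cell markers 37.7 and 47.8, NK cell markers 12.8 and 11.3, myeloid markers 424 and 400, dendritic cell markers 20.7 and 26.5, and stromal and endothelial markers 299 and 328, nearly all from Pecam1, which T cells also express. Erythroid markers had 14.4 and 5.57. The listed haemoglobin genes Hba-a1 and Hbb-bs had 0 counted reads in both, where reads that aligned to several places do not count. Of all expressed genes 5.51% were at least 1.5-fold lower and 7.43% higher. Among the markers, 2 of 6 B cell, 1 of 3 NK and 2 of 2 erythroid genes were lower, and 1 of 3 CD8 genes was higher. None of the expressed myeloid, dendritic or stromal genes differed that much. Some of these genes differed as much as Foxp3 or more: the B cell gene Cd79b was 2.06-fold lower (390 and 366 reads), the NK gene Klrb1c 3.22-fold lower (30 and 18) and the erythroid gene Alas2 2.39-fold lower (115 and 93). The T-box gene Eomes was 1.74-fold higher (43 and 145). The part of these cells in the results was not tested.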

How the data were processed

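RNA was sequenced from 2 pooled libraries of sorted mouse Treg cells, titled WT and KO. Per the labels' protocols, RNA extracted with Trizol was enriched for mRNA on magnetic beads, and a transposase kit turned 1 ng of DNA into each library. The submitters' processing notes name TopHat2 2.0.3, HTSeq and the build mm10; annotation, strand setting and read length were not given in the sources read. The authors deposited raw read counts per gene symbol, not normalized. Of all entries, 15.6% (WT) and 15% (KO) aligned to several places, 6.26% and 6.81% lay outside exons and 1.53% and 1.57% were shared between genes; these 5 counter categories, 2 of them at 0, were left out of library sizes.

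Libraries were scaled by TMM (edgeR 4.0.16, R 4.3.3) and brought to the mean library size. Log2 ratios used a pseudocount of 1; folds and intervals used none. With 1 library per group no test was fitted; edgeR, like DESeq2 1.42.0, served for scaling alone. Exon lengths, GC content (longest transcript) and overlaps came from GENCODE M21 on GRCm38, and 95.9% of expressed genes had a GC value. The alternative for GC content removed a lowess trend (fraction 0.3, statsmodels 0.14.6) on GC content and then on log2 exon length. Pair intervals used a normal approximation on the log ratio of 4 counts. The scripts were tested on simulated data, using Python 3.11.15, scipy 1.17.1, numpy 2.4.6, pandas 2.3.3 and, for figures, matplotlib 3.10.9.

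Members, lists and thresholds were chosen with earlier results of these data known. Named were the 6 members, other forkhead genes that were expressed, genes that overlap or neighbour a member, up to 4 genes per list with the largest absolute ratio, with Klf2, S1pr1, Ccr7 and Il7r, and 3 genes nearest in ratio to a member; marker genes are named from their lists. Prdm1 and the corepressor genes below 0 were named after their values were seen. The targeted gene, 1 coding stretch and some list genes are not reported here, and lists are counted without them.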

Additional observations from a re-analysis of the deposited data

How the results depend on the processing

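The count of 2 members over 1.5-fold held with total count, DESeq2 and upper quartile scaling, with a pseudocount of 5 or none, and with a floor of 100 reads or none; removal of the GC and length trend left 1, Foxp3. Total count scaling moved log2 ratios beyond counting error to 0.81 for Foxp3, 0.17 for Foxp1, 0.84 for Foxp4 and 0.24 for Foxo1, with no call lost. Removal of the trend gave 0.71 for Foxp3, 0.41 for Foxp4 and -0.07 for Foxo3, the last on the other side of 0 but never called. With the trend removed the lists had 2 higher FoxO-activated genes, 1 higher FoxO regulator, 2 higher regulators of the Foxp3 locus, 2 lower Foxp3 partners, 0 higher corepressors and 0 higher other forkhead genes. Over all genes the shares were then 4.20% higher and 6.14% lower. Total count scaling gave 1 higher FoxO regulator, 3 lower Foxp3 partners and 0 higher corepressors. It moved the median log2 ratio of all expressed genes by -0.08, and the shares of all genes called were not counted under it. These 3 counts are therefore no result about the lists. A floor of 100 reads left 0 lower genes among FoxO-activated and Foxp3-repressed genes, since it drops Fasl and Ifng. No paired analysis was possible because each group has 1 library, and no library could be left out. Depth limits Foxo4 and Foxo3 most, with 382 and 786 reads in WT.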
